A study of Mus musculus with 4 samples.

Results

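The spinal mRNA levels of 44 genes known from fibroblasts of the meninges and from neighbouring cells of their barrier layer, collagens excluded, were examined among the 30222 gene names on the array. They were chosen by name from earlier results on these same arrays, so their differences between conditions are a description of the gene set and carry no test. RNA came from slices of lumbar segments L4 to L5 of young male ICR mice, an outbred stock, taken 7 days after a partial ligation of the right sciatic nerve (PSL), an injury that all 4 groups carried. Sham+PSL mice had kept their adrenal glands, and ADX+PSL mice had lost them to adrenalectomy (ADX) and drank saline. Each operation was sampled at ZT10, late in the light phase, and at ZT22, late in the dark phase, with 1 array for each of the 4 conditions, and the comparisons ask how loss of adrenal hormones and time of day relate to spinal mRNA levels. The number of mice behind each RNA and the side of the cord are not given in the sources used here, and no condition had a replicate array.

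The meninges wrap the cord in dura, arachnoid and pia. Their fibroblasts secrete collagens and the proteoglycans, microfibrils and crosslinking enzymes that organise them, and they carry transporters for organic anions, neurotransmitters and sulfate. Regional transcription factors such as Foxc1, Foxc2 and Foxd1 mark the mesenchyme from which these cells derive. A slice of cord holds little meninx, and how much of it each slice kept was not recorded in the sources used here.

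The probes below are those of 4 members on which the results turn, with the first 30 of their 60 bases, since a probe often lies near the end of a transcript. Ogn is a matrix gene that was low on both ADX+PSL arrays, Slc13a4 had the widest range over the arrays among members measured on all 4, and Dapl1 and Msln were well above background on 1 array only. The probes lie at chr13:49719549-49719608 for Ogn, chr6:35217971-35218030 for Slc13a4, chr2:59342824-59342883 for Dapl1 and chr17:25885569-25885628 for Msln, in mm9 coordinates from the array annotation, which gives no exon or strand here.
Ogn probe: cattaaagcatctgtgaactgtaaggccac
Slc13a4 probe: gaggggagagatgtgccttgggttctttac
Dapl1 probe: tctggagaaggctgctccaatgaagagggc
Msln probe: tgggtaccaggggtcattgccaaagtttga

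Probes of the 44 members had a median GC content of 40.8%, against 41.7% over the probes of all 30222 genes. RefSeq promoter sequences (GRCm38.p6) matched 30 of the 44 members. The 250 bases before the transcription start are shown for the members among these 30 with the largest differences between operations, Slc13a4 (minus strand, chr6:35308127-35308376) and Ogn (plus strand, chr13:49607765-49608014), and between the sham+PSL time points, Dapl1 (plus strand, chr2:59484403-59484652) and Slc22a6 (plus strand, chr19:8617746-8617995). Capitals mark matches, on either strand, to the single hexamer AGAACA of glucocorticoid receptor sites, the palindromic element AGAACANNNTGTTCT, the forkhead motif TGTTTAC or the TATA box TATAAA. In Ogn, matches to the TATA box on both strands overlap.
Slc13a4 promoter: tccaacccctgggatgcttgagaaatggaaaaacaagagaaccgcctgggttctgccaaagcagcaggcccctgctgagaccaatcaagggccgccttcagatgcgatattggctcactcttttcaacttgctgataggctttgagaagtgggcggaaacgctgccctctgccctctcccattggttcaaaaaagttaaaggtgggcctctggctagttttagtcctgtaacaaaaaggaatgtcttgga
Ogn promoter: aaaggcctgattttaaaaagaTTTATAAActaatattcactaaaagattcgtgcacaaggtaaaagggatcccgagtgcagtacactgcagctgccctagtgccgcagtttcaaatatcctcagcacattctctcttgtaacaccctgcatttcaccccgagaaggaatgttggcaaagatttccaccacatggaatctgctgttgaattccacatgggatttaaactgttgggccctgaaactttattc
Dapl1 promoter: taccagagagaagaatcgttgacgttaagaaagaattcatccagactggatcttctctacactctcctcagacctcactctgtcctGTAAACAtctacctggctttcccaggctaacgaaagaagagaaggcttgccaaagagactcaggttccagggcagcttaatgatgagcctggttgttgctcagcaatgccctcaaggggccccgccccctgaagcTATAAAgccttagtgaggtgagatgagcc
Slc22a6 promoter: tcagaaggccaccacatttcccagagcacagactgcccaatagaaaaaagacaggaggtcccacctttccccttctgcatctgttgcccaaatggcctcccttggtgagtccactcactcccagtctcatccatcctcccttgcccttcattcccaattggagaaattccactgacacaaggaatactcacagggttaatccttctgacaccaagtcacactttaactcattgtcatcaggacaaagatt

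Slc13a4 and Slc22a6 held none of these letters in the window. The hexamer AGAACA was in 7 of the 30 members' promoters (Bgn, Fbln1, Pcolce2, Vtn, Igf2, Igfbp2 and Islr) and in 16.2% of 27025 promoters. The palindromic element was in none of the 30, and in 0.0037% of all. The forkhead motif was in 1 member, Dapl1, and in 3.09% of all, and the TATA box was in 5 members and in 13.0% of all.

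Between 65.1% and 70.1% of the 39429 probes were well above background on an array, which the image analysis flags spot by spot, and no spot was saturated. Levels are the authors' quantile-normalized intensities in arbitrary units, so a level compares arrays for 1 probe and not 1 gene with another. The error that the software gave to single spots corresponds to 0.20 to 0.34 on the log2 scale for a ratio of 2 arrays over the 32 members measured on all 4 arrays. It covers the spot only, and leaves out differences between mice and between slices. All 10 markers each of neurons, astrocytes, oligodendrocytes and microglia were well above background on at least 1 array.

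Of the 44 members, 32 were well above background on all 4 arrays, 2 on 3 arrays, 2 on 2 arrays and 4 on 1 array. Lox, which crosslinks elastin and collagen, the cation exporter Slc47a1, and the transcription factors Tbx18 and Twist1 were not well above background on any array, so that the label rests on the other 40. The 4 genes detected on 1 array, Postn, Dapl1, Cdh1 and Msln, all on sham+PSL at ZT22, could enter the comparisons only by being high there. Where a level was not well above background, the ratio is a bound, set against the higher of that level and the lowest level called well above background on its array.

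**Figure D1:**
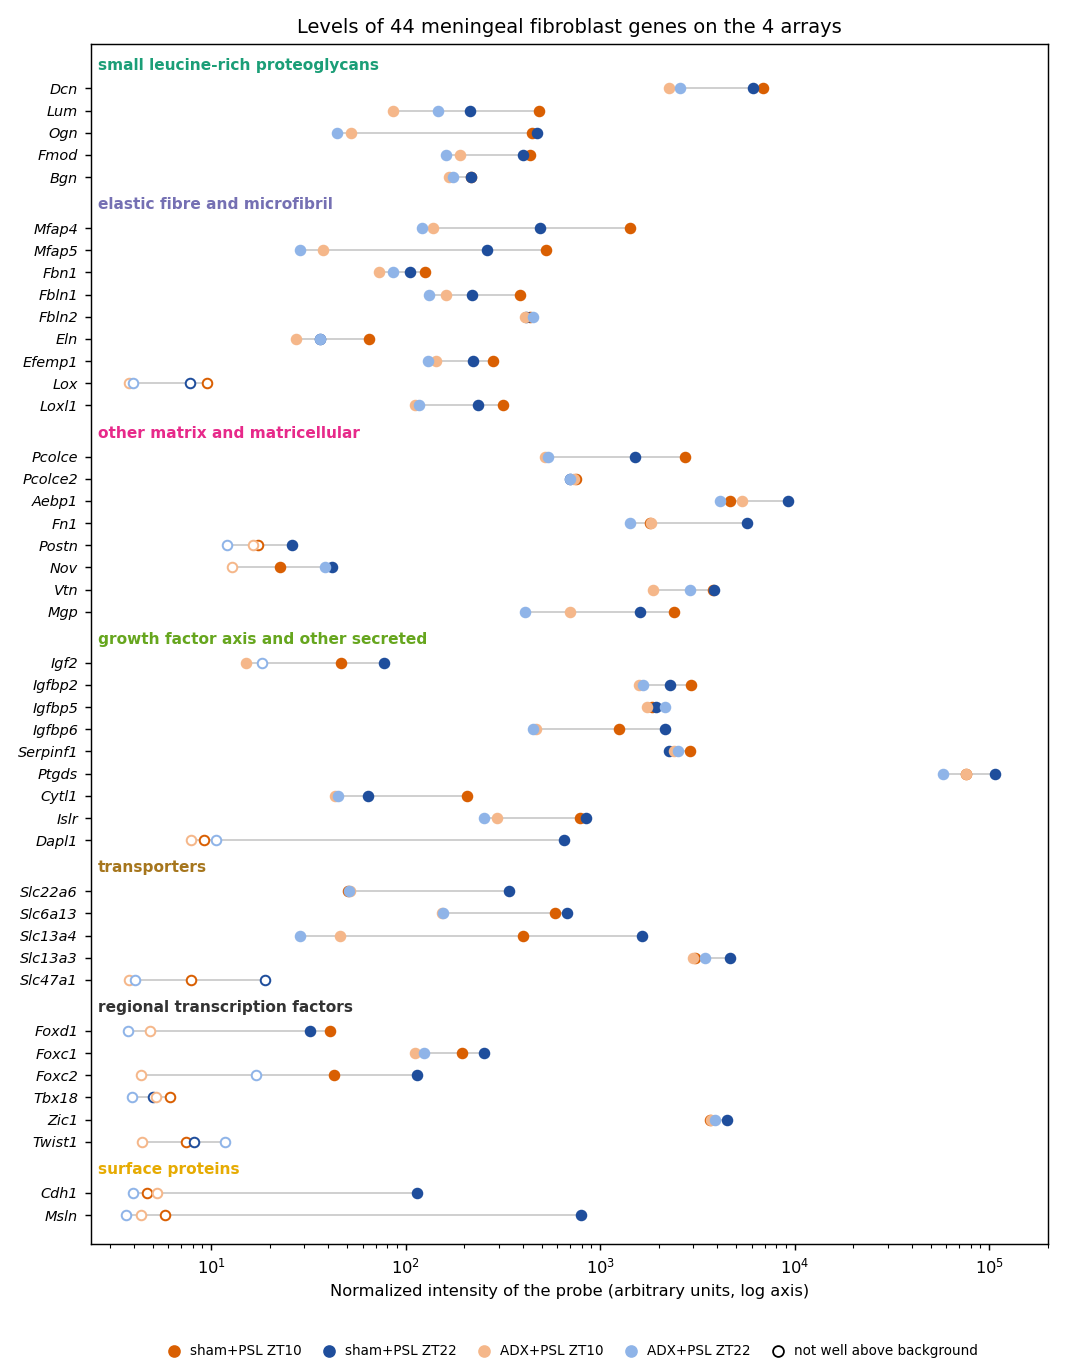
Normalized intensity (arbitrary units, log axis) of the 44 members on the 4 arrays, 1 point per array, grouped by role, with open points where the probe was not well above background. Ogn, Mfap5, Pcolce, Islr, Slc6a13 and Slc13a4 have both ADX+PSL points to the left of both sham+PSL points, and Dapl1, Cdh1 and Msln have 1 filled point, that of sham+PSL at ZT22.

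Each ADX+PSL array read lower than each sham+PSL array for 5 of 5 small leucine-rich proteoglycans and 6 of 8 detected elastic fibre genes. The same held for 6 of 9 growth factor and other mainly secreted genes, 3 of 4 transcription factors and 2 of 4 transporters. It also held for 3 of 8 other matrix genes and 0 of 2 surface proteins. The share over all genes was 14.4%. At ZT10, 20 of the 36 members with a ratio were at least 2-fold lower in ADX+PSL than in sham+PSL, against 2.38% of all genes with a ratio, and at ZT22 21 of 40 were, against 1.85%. None was at least 2-fold higher at ZT10 (1.46% of all genes) or at ZT22 (1.47%). The members were at least 2-fold lower at both times in 14 of 36 cases (0.433% of all genes) and at 1 time or more in 27 of 40 (3.64%). Since the set was chosen with these values known, the counts describe it and support nothing further. In such bulk samples, fewer cells of a type and less RNA per cell cannot be told apart.

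In all, 25 of the 40 members were lower on both ADX+PSL arrays (14.4% of all genes), and none was higher on both (17.3%). The mean log2 difference, ADX+PSL minus sham+PSL, had a median of -1.18 over the 40 members and of 0.01 over 21955 genes. It ran from -4.48 for Slc13a4 to 0.04 for Igfbp5. With another background correction, normexp, the fold between the group means moved by over 1.5 times in 10 of the 40 members, the mean log2 difference becoming -3.16 for Slc13a4, -2.19 for Ogn, -2.19 for Mfap5, -1.78 for Msln, -1.60 for Dapl1, -0.84 for Foxc2, -0.75 for Cytl1, -0.63 for Igf2, -0.55 for Cdh1 and -0.46 for Foxd1.

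**Figure D2:**
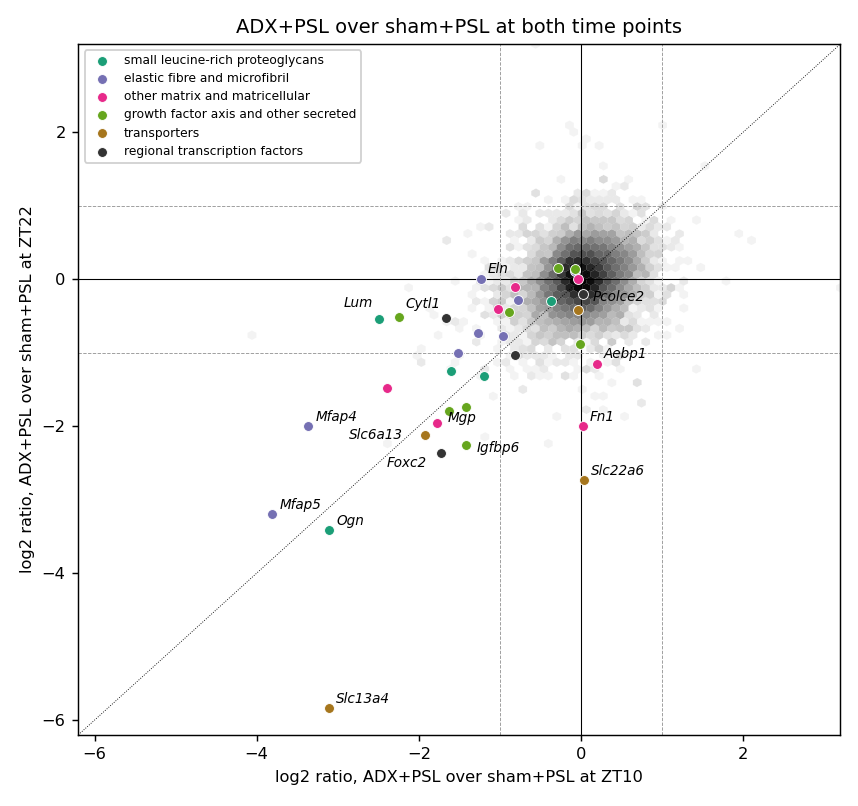
Log2 ratio of ADX+PSL over sham+PSL at ZT10 (horizontal) and at ZT22 (vertical) for the 36 members with both ratios, coloured by role, over all genes as grey density; dashed lines mark 2-fold and the dotted line equal ratios, and genes beyond the axes are drawn at the edge. Slc13a4, Ogn and Mfap5 lie at -3.11 or lower on both axes, while Lum and Cytl1 pass 2-fold at ZT10 only and Fn1, Aebp1 and Slc22a6 at ZT22 only.

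The 5 small leucine-rich proteoglycans, which bind collagen fibrils and set their width and spacing, were all lower on both ADX+PSL arrays. Pairs of levels or ratios are given with ZT10 first and ZT22 second. Ogn (osteoglycin) had a level of 448 in sham+PSL at ZT10 and 471 at ZT22, against 51.9 and 44.1 in ADX+PSL. Its sham+PSL arrays nearly coincided and both ADX+PSL arrays lay far below them, 8.62-fold lower at ZT10 and with a log2 ratio of -3.42 at ZT22. Decorin, Dcn, which wraps around type I collagen, was at 6864 and 6121 in sham+PSL and at 2262 and 2580.2 in ADX+PSL, 3.03-fold and 2.37-fold lower. Fmod (fibromodulin) was at 435 and 401 against 190.4 and 161, 2.29-fold and 2.49-fold lower. In these 3 genes the arrays of the same operation lay close together.

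Lum (lumican) was less even, with 483 and 213 in sham+PSL and 86.2 and 146 in ADX+PSL. It was 5.61-fold lower in ADX+PSL at ZT10 but 1.46-fold lower at ZT22, and its 2 arrays of each operation stood apart. Bgn (biglycan), the closest relative of decorin, was at 217 and 216 against 167 and 176, a mean log2 difference of -0.33, the smallest of the 5. The groups of Bgn did not overlap, but all 4 of its levels lay within 1.29-fold of each other.

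Among the elastic fibre genes, both microfibril-associated proteins showed wide gaps between the operations. Mfap5 was at 527 (ZT10) and 261 (ZT22) in sham+PSL, and at 37.6 and 28.4 in ADX+PSL. That was 14-fold lower at ZT10 and 9.18-fold lower at ZT22, and the sham+PSL arrays also differed from each other. Mfap4 was at 1425 and 487 against 138 and 122, with ADX+PSL 10.3-fold and 4-fold lower.

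Loxl1, an oxidase that crosslinks elastin, was at 317 and 236 in sham+PSL and at 111 and 117 in ADX+PSL, 2.86-fold and 2.01-fold lower. Its value at ZT22 lay just inside the 2-fold limit, while that of the fibulin Efemp1 at ZT10, 1.95-fold lower, lay just outside. Another Loxl1 probe, well above background on all 4 arrays, had log2 ratios of -1.33 at ZT10 and -0.49 at ZT22. That probe passed 2-fold at ZT10 only. Fbln1 (fibulin 1) was at 388 and 219 against 161 and 132, 2.41-fold and 1.66-fold lower. The other two Fbln1 probes had mean log2 differences of -1.58 and -1.99, in the same direction.

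Fibulin 2, Fbln2, did not follow its relatives, with 435 and 417 in sham+PSL and 412 and 448 in ADX+PSL, a mean log2 difference of 0.01. Fibrillin 1, Fbn1, the backbone of microfibrils, was at 126 and 105 against 73.2 and 86.1, lower on both ADX+PSL arrays with a mean log2 difference of -0.53. Elastin itself, Eln, was lower in ADX+PSL at ZT10 only, with 64.3 in sham+PSL and 27.3 in ADX+PSL, against 36.2 and 36.4 at ZT22.

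Of the other matrix genes, Pcolce, which enhances the removal of the carboxyl propeptide from procollagen, was at 2719.5 and 1502 in sham+PSL and at 516 and 538 in ADX+PSL. The ADX+PSL levels were alike and 5.27-fold and 2.79-fold below sham+PSL. Its paralog Pcolce2 was at 753 and 698 against 733 and 698, a mean log2 difference of -0.02, so that the 2 enhancers of the same reaction differed in their pattern. Mgp, an inhibitor of calcification made by cartilage and vessel walls too, was at 2388 and 1594 against 697 and 409, 3.43-fold and 3.9-fold lower.

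Fibronectin, Fn1, and the collagen-binding protein Aebp1 were lower in ADX+PSL at ZT22 alone. Fn1 was at 1790.1 and 5682 in sham+PSL and at 1817 and 1419 in ADX+PSL, so that 1 array, sham+PSL at ZT22, stood above the 3 others. Aebp1 was at 4659 and 9168 against 5326 and 4122, with the same array on top. Vitronectin, Vtn, was at 3798 and 3825 against 1874 and 2879, 2.03-fold lower at ZT10 and 1.33-fold at ZT22. Its probe was printed 10 times, and the log2 signals of the 10 spots had an SD of 0.04 to 0.06 per array, which covers the spots of an array and not the samples.

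Postn (periostin) was well above background in sham+PSL at ZT22 only, with 25.9, and was at 17.4 in sham+PSL at ZT10 and at 16.3 and 12 in ADX+PSL. The bound on its ratio at ZT22 was at least 1.17-fold. Nov, a matricellular protein now named Ccn3, was at 22.6 and 41.5 in sham+PSL, at 12.8, not well above background, in ADX+PSL at ZT10 and at 38.5 at ZT22, so its groups overlapped.

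In the insulin-like growth factor axis, the ligand Igf2 and the binding protein Igfbp6, which prefers Igf2, were low in ADX+PSL. Igf2 was at 46.6 and 77.0 in sham+PSL, at 15.1 in ADX+PSL at ZT10 and at 18.1, not well above background, at ZT22, 3.09-fold lower and at least 3.47-fold lower. Igfbp6 was at 1253 and 2155 against 468 and 452, 2.68-fold and 4.77-fold lower. Igfbp2 was lower by a smaller amount, with a mean log2 difference of -0.67. Igfbp5 was at 1837 and 1941 against 1747 and 2145, with a difference of 0.04 and overlapping groups. Igfbp2 and Igfbp5 are neighbours, with probes 6.0 kb apart on chromosome 1 in mm9.

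Among the other secreted proteins, Islr, a leucine-rich repeat protein of mesenchymal cells, was at 790.3 and 843 in sham+PSL and at 296 and 251 in ADX+PSL, 2.67-fold and 3.35-fold lower. Cytl1, a small cytokine-like protein, was at 205 and 64.1 against 43.1 and 44.9, where sham+PSL at ZT10 alone stood high. Serpinf1, which codes for the anti-angiogenic factor PEDF, was at 2894 and 2257 against 2383 and 2516, with a difference of -0.06 and overlapping groups. Ptgds, the prostaglandin D synthase of the leptomeninges and of oligodendrocytes, was lower on both ADX+PSL arrays with a mean log2 difference of -0.45, yet its ratio at ZT10 was -0.01. Dapl1, counted with this group, is not a secreted protein. It was at 651 in sham+PSL at ZT22. Its other levels, not well above background, were 9.19 in sham+PSL at ZT10 and 7.84 and 10.6 in ADX+PSL. At ZT22 it was at least 29.4-fold lower in ADX+PSL.

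The transporters held the widest difference of the set. Slc13a4, a sodium-coupled sulfate carrier, was at 399 and 1633 in sham+PSL and at 46.1 and 28.5 in ADX+PSL, 8.66-fold lower at ZT10 and 57.3-fold lower at ZT22. Its 4 levels were all well above background and none was near another. Slc6a13, a carrier of GABA and taurine, was at 587 and 675 against 154 and 155, 3.81-fold and 4.35-fold lower with the arrays of each operation close together.

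Slc22a6, an organic anion transporter, was at 50.7 (ZT10) and 339 (ZT22) in sham+PSL, against 51.8 and 50.9 in ADX+PSL. Its 3 lower arrays were equal within the spot error, and the fourth was 6.65-fold above the ADX+PSL array of the same time. Slc13a3, a dicarboxylate carrier also present in astrocytes, was at 3074 and 4629 against 2989 and 3462, with overlapping groups and a mean log2 difference of -0.23.

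Of the regional transcription factors, the 3 forkhead genes had both ADX+PSL levels below both sham+PSL levels. Foxc2 was at 42.5 and 114 in sham+PSL and, not well above background, at 4.37 and 16.9 in ADX+PSL, at least 3.31-fold lower at ZT10 and at least 5.14-fold lower at ZT22. Foxd1 was at 40.7 and 32.1 and, likewise not well above background in ADX+PSL, at 4.85 and 3.72, at least 3.18-fold and at least 1.45-fold lower. Foxc1 was at 194 and 252 against 111 and 123, 1.75-fold and 2.04-fold lower, with ADX+PSL levels that could still be measured. Zic1, also expressed by neurons of the dorsal cord, was at 3672 and 4490.0 against 3720.4 and 3907, a mean log2 difference of -0.09.

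Both surface proteins were detected on a single array. Msln (mesothelin) was at 799 in sham+PSL at ZT22 and at 5.76, 4.34 and 3.64 elsewhere, none of them well above background, so that ADX+PSL at ZT22 was at least 36-fold lower. Cdh1, the cadherin of epithelial junctions and of the arachnoid barrier layer, was at 114 in sham+PSL at ZT22 and, not well above background, at 4.68 in sham+PSL at ZT10 and at 5.25 and 3.98 in ADX+PSL, at least 5.13-fold lower in ADX+PSL at ZT22. All 10 spots of the Cdh1 probe were well above background on that array, while 0 of 10 were on the ZT10 sham+PSL array and 1 and 0 of 10 on the ADX+PSL arrays of ZT10 and ZT22.

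The 2 sham+PSL arrays differed from each other in more of these genes than the 2 ADX+PSL arrays. The comparison of time points within sham+PSL shares its arrays with the comparisons above, so that a gene high on 1 sham+PSL array moves both. Within sham+PSL, 4 of 40 members were at least 2-fold higher at ZT10 (1.61% of all genes) and 7 at least 2-fold lower (2.09%). Among these 7, Dapl1, Cdh1 and Msln were detected on sham+PSL at ZT22 only. They have no time ratio in ADX+PSL, so they could add to the sham+PSL count alone. In ADX+PSL, 1 of 33 members was at least 2-fold lower at ZT10 (1.96%), which was Nov with a bound of at least 3-fold, and none was higher (0.949%). The median absolute log2 ratio between time points was 0.58 over the members in sham+PSL, against 0.16 over all genes, and 0.21 in ADX+PSL, against 0.14. Over the 32 members measured on all 4 arrays the sham+PSL value was 0.40 and the ADX+PSL value 0.20. Of these 32, 4 were at least 2-fold higher and 3 at least 2-fold lower at ZT10 in sham+PSL, and 0 either way in ADX+PSL. That the time ratios of the operations differ was not tested.

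**Figure D3:**
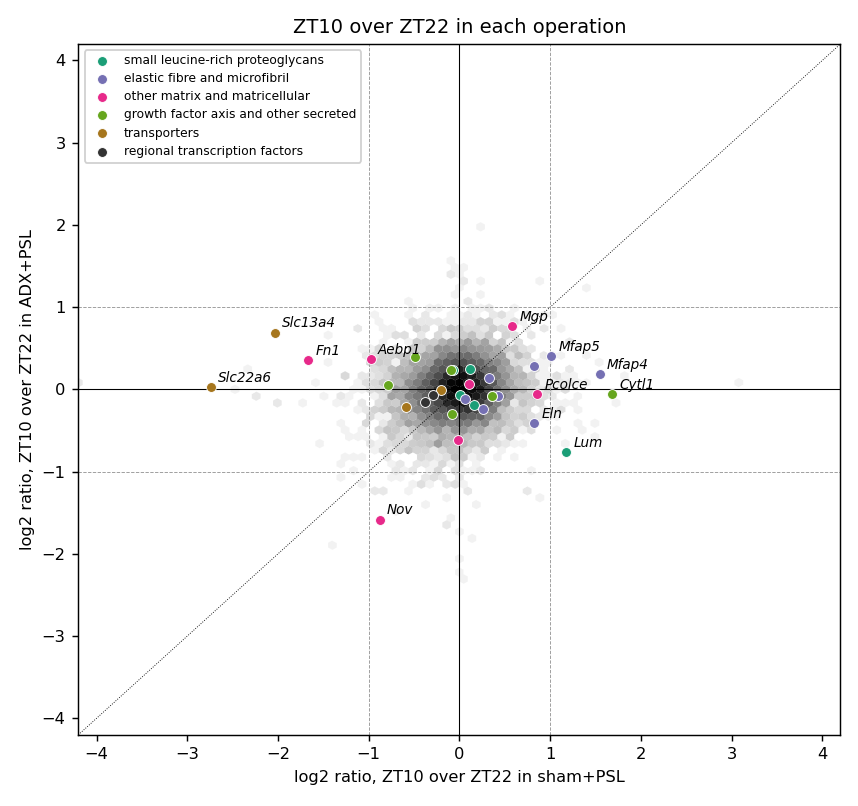
Log2 ratio of ZT10 over ZT22 in sham+PSL (horizontal) and in ADX+PSL (vertical) for the 33 members with both ratios, coloured by role, over all genes as grey density; dashed lines mark 2-fold and genes beyond the axes are drawn at the edge. Members spread from -2.74 (Slc22a6) to 1.68 (Cytl1) along the horizontal axis and, Nov aside, lie between -0.76 and 0.77 on the vertical axis.

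The members past 2-fold in sham+PSL fell into 2 sets by array. Mfap4, Mfap5, Lum and Cytl1 were highest in sham+PSL at ZT10, each at least 2-fold above every other array (0.733% of all genes). They were 2.92-fold, 2.02-fold, 2.26-fold and 3.2-fold above sham+PSL at ZT22. Fn1, Slc22a6, Slc13a4, Foxc2, Dapl1, Cdh1 and Msln were highest in sham+PSL at ZT22, each at least 2-fold above every other array (0.824%). Their ratios over sham+PSL at ZT10 were 3.17-fold for Fn1, 6.68-fold for Slc22a6, 4.09-fold for Slc13a4 and 2.69-fold for Foxc2. For Dapl1, Cdh1 and Msln they were bounds of at least 43.8-fold, 7.66-fold and 53.7-fold. No member was so placed on ADX+PSL at ZT10 (0.487%) or at ZT22 (0.738%).

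**Figure D4:**
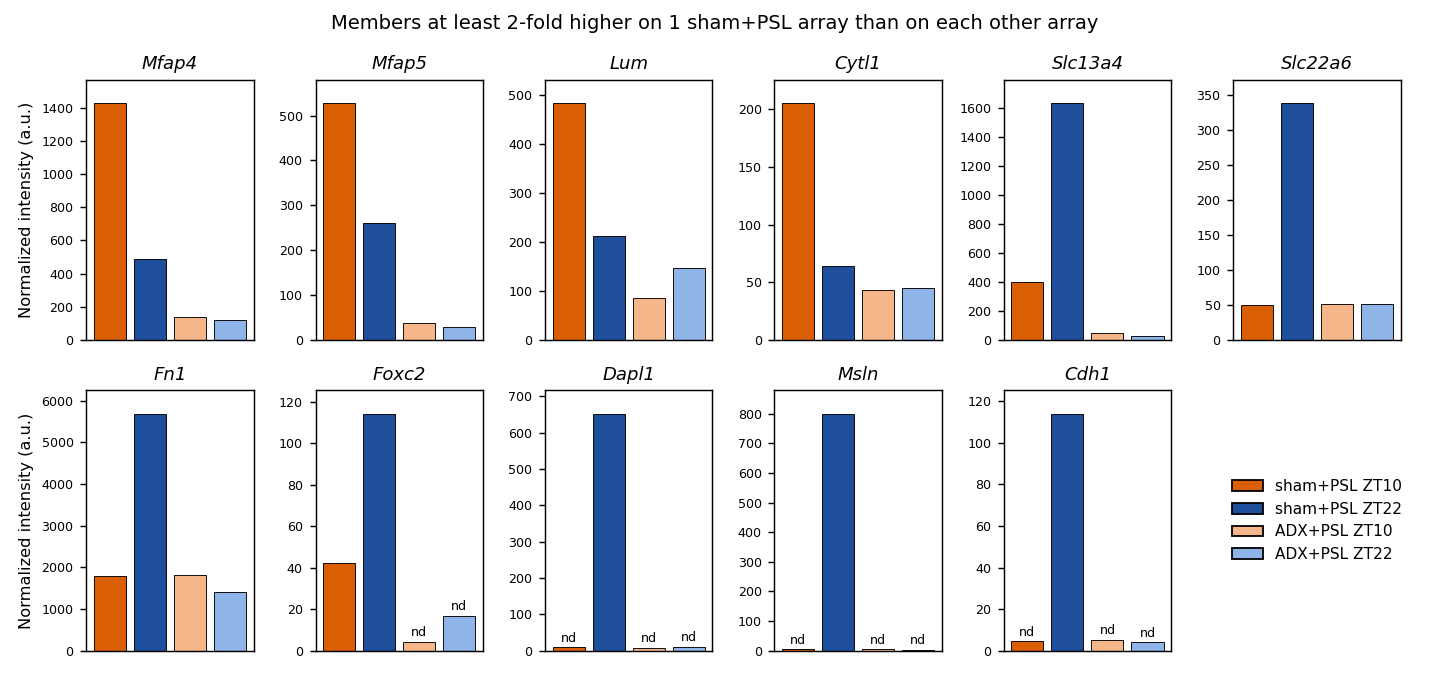
Normalized intensity (arbitrary units, linear axis from 0) of the 11 members at least 2-fold higher on 1 sham+PSL array than on each other array, 1 bar per array; nd marks a probe not well above background. The first 4 panels are highest in sham+PSL at ZT10 and the other 7 in sham+PSL at ZT22, where Dapl1, Msln and Cdh1 have their only detected level.

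Markers of other cells also differed between the sham+PSL arrays. Summed levels cover every listed gene on the array, detected or not, and weigh bright probes most. Skeletal muscle markers, 10 of 13 detected, had a summed level of 3112 in sham+PSL at ZT10 against 423 to 534 on the other arrays, where Myh4 was at 811 and was detected nowhere else. Of the Schwann cell and nerve root list, 7 of 9 genes were detected. The summed level of all 9 was 2875 and 2547 on the sham+PSL arrays and 2267 and 2174 on the ADX+PSL arrays (ZT10 first). Egfl8, Pou3f1 and Drp2 made up most of each sum, with levels of 575 to 795 over the arrays. Of the defining genes of the list, Prx was at 466 and 247 in sham+PSL against 40.9 and 36.3 in ADX+PSL. Red blood cell genes, 6 of 8 detected, had a summed level of 18775 in sham+PSL at ZT22 and of 89819 to 135919 on the other arrays. The part of muscle, nerve root or blood in the members' values was not tested. Leaving out an array loosens the criterion for all genes. Without the ZT10 sham+PSL array, 35 of 40 members were lower on the ADX+PSL arrays (30.6% of all genes) and 1 higher (33.4%). The median log2 difference was then -1.01. These 35 include Postn, Dapl1, Cdh1 and Msln, which were detected on sham+PSL at ZT22 only and could not count as higher. Without the ZT22 sham+PSL array, 28 were lower (31% of all genes) and 2 higher (31.1%), with a median of -0.94. Without the ADX+PSL array of ZT10, 28 were lower (29.5%) and 2 higher (32.8%), and without that of ZT22 30 were lower (27.6%) and 0 higher (33.8%).

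Collagens and other fibroblast genes outside the set were compared in the same way. Over all genes, 14.4% lay lower on both ADX+PSL arrays and 17.3% higher, which holds for each count below. Of 12 detected collagens, 9 lay lower on both ADX+PSL arrays and none higher, with a median log2 difference of -0.99. Col1a1 was at 1809 and 1574 in sham+PSL and at 336 and 318 in ADX+PSL, and Col15a1 was not well above background. Of 29 detected other fibroblast and meningeal genes, 16 lay lower on both ADX+PSL arrays and none higher, with a median of -0.57, among them the retinaldehyde dehydrogenase Aldh1a2 at -1.66, Bmp6 at -1.53 and Pi16 at -1.49. Of 15 collagen folding and crosslinking enzymes, 9 were lower and 1 was higher on both, but with a median of -0.12. These lists were drawn up with earlier results of these arrays known, as were those that follow.

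Lists of cord cells and vessels had medians between -0.29 and -0.01 on the same scale. The median log2 difference was -0.01 over 10 astrocyte genes, -0.06 over 10 oligodendrocyte genes, -0.07 over 10 neuron genes, -0.29 over 10 microglia genes, -0.05 over 15 endothelial genes and -0.20 over 11 genes of pericytes and smooth muscle. Lower and higher on both ADX+PSL arrays were 0 and 1, 0 and 1, 1 and 2, 4 and 1, 2 and 0, and 4 and 1 genes of these lists, in that order. Over all genes, 14.4% were lower and 17.3% higher. The microglia and pericyte lists, with 4 lower genes each, exceeded the share of lower genes. The median difference was -1.21 over the 10 muscle genes (4 lower, 0 higher), -0.71 over the 7 Schwann cell genes (3 and 1), 0.93 over the 6 red blood cell genes (0 and 0), -0.01 over 10 genes of cartilage and bone (1 and 2), 0.02 over 4 of sensory ganglia (0 and 1), 0.21 over 5 of ependyma (1 and 2) and -0.02 over 4 of choroid plexus (0 and 0). In 2 lists the times differed widely. The median log2 ratio of ADX+PSL over sham+PSL was -0.51 at ZT10 and 2.43 at ZT22 for red blood cells. For muscle it was -1.98 and -0.31. Fibroblasts of nerve root sheaths and vessels express many of the members too, so that the layer of origin of their mRNA cannot be told apart in whole slices.

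**Figure D5:**
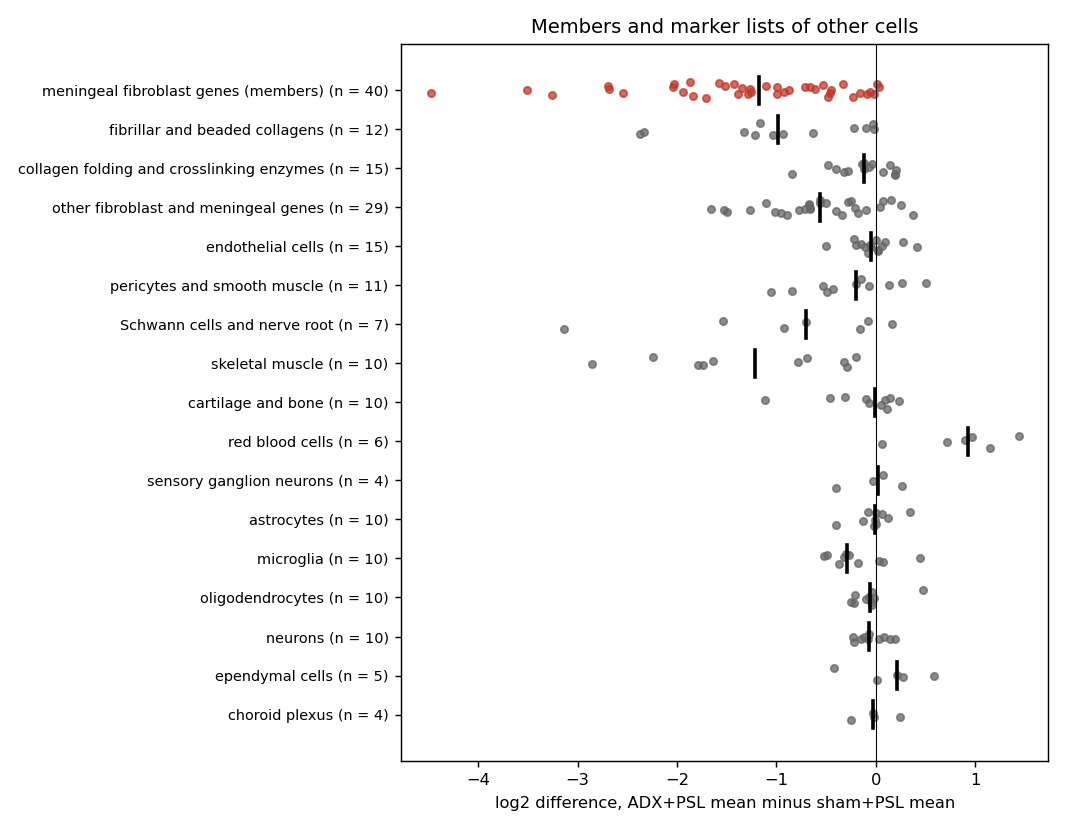
Log2 difference of the ADX+PSL mean minus the sham+PSL mean for the 40 detected members (red) and for the detected genes of 16 lists (grey), 1 point per gene, with a black bar at the median. The medians of members, collagens, other fibroblast genes, Schwann cells and skeletal muscle lie at -0.57 or below, that of red blood cells at 0.93, and the others between -0.29 and 0.21. At single time points, the red blood cell median was -0.51 at ZT10 and 2.43 at ZT22, and that of muscle -1.98 and -0.31.

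A list of 7 members also known from cells of the cord or its vessels held Ptgds, Igfbp5, Igfbp2, Zic1, Vtn, Fn1 and Nov. Its median difference was -0.46, and 3 of the 7 were lower on both ADX+PSL arrays, against 14.4% of all genes. Slc13a3 (-0.23) and Mgp (-1.87), described above as also present in astrocytes or vessel walls, were not on it. Of the 32 members measured on all arrays, 6 kept their 4 levels within 1.5-fold, Bgn, Fbln2, Pcolce2, Igfbp5, Serpinf1 and Zic1, against 83.8% of 19055 genes, a limit chosen after their values were seen. Among the members, 3 pairs had probes within 200 kb of each other and a measured difference for both genes. Whether such neighbours lie closer to each other than other members was not tested. Igfbp2 and Igfbp5 had differences of -0.67 and 0.04. Dcn and Lum, with probes 55.0 kb apart on chromosome 10, had differences of -1.42 and -1.52, and Loxl1 and Islr, 134.4 kb apart on chromosome 9, of -1.26 and -1.58. In sham+PSL, however, Lum differed between time points by 1.18 on the log2 scale and Dcn by 0.17.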

How the data were processed

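Spinal RNA of 4 conditions was hybridized to 1-colour Agilent whole mouse genome arrays with 60-base probes, 1 array each. The authors deposited per-spot intensities from Agilent Feature Extraction (9.5.1.1 per the labels, 10.7.1.1 per the file headers), with background-corrected signals and flags, and a table of normalized intensities on the linear scale. Set against the scanner values, the table ranked the probes of an array alike (Spearman's rho 1.0), and its 4 columns had the same median, 105.46, as quantile normalization gives. Its direction and scale are thus known.

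Levels came from this table. A probe was well above background if at least 50% of its spots were, and a gene was represented by its probe with the highest mean level. The ratios of the deposited intensities were taken as log2 differences, and 2-fold was the limit, with the brighter array well above background. With 1 array per condition, no test was run. All 44 members were accounted for, with all 4 levels given for up to 4 members per role with the largest mean log2 difference and for 1 or 2 with the smallest, and for each member past 2-fold between time points. Members, lists, rules and alternatives were chosen with earlier results of these data known. Accessions matched a RefSeq symbol for 43 members, 1 of them under another name. Tools were Python 3.11.15, numpy 2.4.6, pandas 2.3.3, matplotlib 3.10.9, R 4.3.3 and limma 3.58.1. Alternatives were the processed signals with quantile normalization, with a shift by the 75th percentile or without outlier spots, normexp (offset 50), an average of a gene's probes, stricter and looser filters, and a limit of 1.5-fold.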

Additional observations from a re-analysis of the deposited data

Results flagged for a closer look

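Lum and Slc13a4 were the members whose time ratios, ZT10 over ZT22, pointed in opposite directions in the operations, each by more than 2 times its spot error. In sham+PSL the log2 ratio was 1.18 for Lum and -2.03 for Slc13a4, and in ADX+PSL it was -0.76 for Lum and 0.69 for Slc13a4. With 1 array per condition, these differences were not tested.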

How the results depend on the processing

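The counts and medians of the members were computed again under 7 other settings, and the counts under a limit of 1.5-fold. With the processed signals, quantile-normalized, shifted by the 75th percentile or taken without outlier spots, and with the mean over a gene's probes, every count stayed within 1.5 times and every median within the spot error. With normexp, which compresses low levels, the median log2 ratio of ADX+PSL over sham+PSL was -0.66 at ZT10 and -0.76 at ZT22. The median mean difference was -0.72. Members at least 2-fold lower in ADX+PSL than in sham+PSL fell from 20 to 14 at ZT10 and from 21 to 18 at ZT22. In ADX+PSL, 0 members were at least 2-fold lower at ZT10 than at ZT22. In all, 21 of 40 members moved beyond their spot error, 10 of 40 by over 1.5 times. None with a difference above that error changed sign. Over the members well above background on all 4 arrays, the median difference was -0.99, 3 members were lower in sham+PSL at ZT10 than at ZT22, 0 in ADX+PSL, and 3 were highest in sham+PSL at ZT22, since members dim on 1 array drop out. Without a filter the median ratio at ZT10 was -0.99, and 3 members were lower at ZT10 in ADX+PSL. With a limit of 1.5-fold, 7 members were higher and 12 lower in sham+PSL at ZT10, 2 higher and 3 lower in ADX+PSL, and 7 were highest in sham+PSL at ZT10.

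Leaving out each array in turn, which was chosen after seeing the data, asks for a gap between fewer arrays and gave 28 to 35 members lower in ADX+PSL (27.6% to 31% of all genes), 0 to 2 higher (31.1% to 33.8% of all genes; 2 without sham+PSL at ZT22 or without ADX+PSL at ZT10, 1 without sham+PSL at ZT10), and a median difference of -1.28 to -0.94. The counts of members highest on 1 array were also added then. The 35 members lower without sham+PSL at ZT10 include Postn, Dapl1, Cdh1 and Msln, which were detected on sham+PSL at ZT22 only. No paired analysis was possible because each condition had 1 array and the labels carry no replicate numbers. Low signal over background limits Postn, Nov, Igf2, Foxd1, Foxc2, Dapl1, Cdh1 and Msln to bounds in 1 or more comparisons.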
